A study of Homo sapiens with 7 samples.

Results

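The genes described here are 10 long non-coding RNAs (lncRNAs): MIR205HG, MALAT1, NEAT1, H19, UCA1, MIR31HG, GAS5, SNHG1, SNHG12 and HOTAIR. They were chosen by name, as abundant lncRNAs and lncRNAs known from squamous epithelium, and are 10 of 13530 lncRNA genes and of 56236 genes with a transcript in the tables. All 10 were measured in all 7 libraries, as gene sums and as single transcripts. RNA-Seq was performed on TE5 and KYSE140, 2 established lines of esophageal squamous cell carcinoma, carrying a lentiviral pLKO.1 shRNA. TE5 had a scramble control, shTP63 (shp63-ma), shSOX2 (shsox2-1) and shCCAT1 (shCCAT1-2), and KYSE140 had a scramble control, shTP63 and shSOX2 with the same hairpin names, with 1 library for each. TP63 and SOX2 are transcription factors of squamous epithelium, and CCAT1 is an lncRNA. Every library, the scramble controls included, came from cells with an shRNA vector, so no library of untransduced cells was compared.

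Long non-coding RNAs are transcribed and spliced like messenger RNAs but encode no known protein, and several act through their own RNA or through small RNAs cut from it. NEAT1 is the scaffold of paraspeckles, nuclear bodies assembled on its long isoform, and MALAT1 lies in nuclear speckles near the splicing machinery. MIR205HG, MIR31HG and H19 carry microRNA hairpins within their transcription units. GAS5, SNHG1 and SNHG12 hold small nucleolar RNAs (snoRNAs) in their introns, while their spliced RNAs are short-lived and start at promoters of the kind used by genes of the translation machinery. UCA1 was first described in urothelial carcinoma, and HOTAIR is transcribed antisense to the HOXC genes.

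Mature microRNAs of the 3 host genes are shown because they are known products of these loci, with the seed (bases 2 to 8) in capitals. Of miR-31 only the 5p arm is shown. The sequences are from RefSeq and were placed in GRCh37 by exact match.
miR-205-5p (chr1:209605511-209605532, + strand): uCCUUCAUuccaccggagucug
miR-205-3p (chr1:209605548-209605568, + strand): gAUUUCAGuggagugaaguuc
miR-31-5p (chr9:21512157-21512177, − strand): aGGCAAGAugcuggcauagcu
miR-675-5p (chr11:2018030-2018052, − strand): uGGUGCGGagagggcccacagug
miR-675-3p (chr11:2017998-2018017, − strand): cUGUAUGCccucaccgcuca
No seed was shared between the microRNAs shown. The miR-675 hairpin lay in an exon of 9 of the 11 listed H19 transcripts, whereas the miR-31 hairpin lay in an intron of the 1 listed MIR31HG transcript. The whole miR-205 hairpin lay inside an intron of 1 of the 10 listed MIR205HG transcripts, as did its 3p arm, and inside an exon of 0, whereas the 5p arm lay in an intron of 8 and wholly in an exon of 0. Mature microRNAs are too short for these libraries and were not measured.

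NEAT1 and MALAT1 lie close together on chromosome 11, and the long NEAT1 isoform and MALAT1 are known to end in a stretch that is cut by RNase P and folds into a triple helix in place of a poly(A) tail. The last 80 bases of the NEAT1-202 transcript and the matching stretch of MALAT1 are shown for this reason, with the runs of 16 and 11 bases that are identical in both in capitals.
NEAT1 (chr11:65212932-65213011, + strand): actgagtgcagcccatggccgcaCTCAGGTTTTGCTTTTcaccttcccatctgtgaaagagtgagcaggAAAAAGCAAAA
MALAT1 (chr11:65273508-65273587, + strand): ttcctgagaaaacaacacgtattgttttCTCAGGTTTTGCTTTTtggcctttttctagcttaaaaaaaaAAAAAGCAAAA
The 11-base run occurred at 2 places in MALAT1, of which the more 3′ is shown. The sources used here name a standard Illumina protocol on total RNA and do not say whether poly(A) RNA was selected, so the share of these tailless ends that entered the libraries is unknown.

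The starts of the snoRNA host transcripts with the most counts are shown with their longest run of C and T in capitals, from 10 bases before to 20 bases from the start, since genes of the 5′ terminal oligopyrimidine (5′ TOP) class start on such runs.
GAS5 (GAS5-221, chr1:173837108-173837137, − strand): accatactgTCTTTTCgaggtaggagtcga
SNHG1 (SNHG1-211, chr11:62623339-62623368, − strand): ggagattcgttctcaTTTTTCTactgctcg
SNHG12 (SNHG12-205, chr1:28908371-28908400, − strand): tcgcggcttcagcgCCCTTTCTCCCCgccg
The longest run spanned the start in GAS5, with 7 bases, and began downstream of it in SNHG1 (7 bases, from base 6) and SNHG12 (12 bases, from base 5). A shorter run in SNHG1, ttctc, spanned its start and is not in capitals. A run at least as long was present in the same window of 19.3% of 35116 RefSeq promoters for 7 bases and of 2.51% for 12 bases.

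The libraries held between 68532611 and 98036494 estimated counts, and the 10 genes took between 0.078% and 0.417% of them. The labels place the TE5 scramble library on another flow cell than the 3 TE5 knockdowns, and the KYSE140 scramble on another lane than its knockdowns, so that each comparison with scramble cannot be told apart from flow cell or lane. The shTP63 and shSOX2 libraries of a line shared a lane. TP63 was at 26.6% of scramble in TE5 shTP63 and at 26.0% in KYSE140 shTP63, and SOX2 at 39.9% in TE5 shSOX2 but at 75.6% in KYSE140 shSOX2. A transcript at the CCAT1 locus, ENST00000500112, was at 31.7% in TE5 shCCAT1, and at 39.8% and 51.3% in TE5 shTP63 and shSOX2. The edgeR fits over both lines, described below for the members, did not call the silenced genes themselves (TP63 -1.95, adjusted p = 0.287; SOX2 -0.89, adjusted p = 0.569). Of the squamous markers, the basal keratin KRT14 was between 0.202 and 0.546 TPM in TE5 and between 303.5 and 1689 TPM in KYSE140, whereas KRT5 was above 200 TPM in all 7 libraries. The 6 squamous markers, among them the silenced TP63 and SOX2, summed to between 405.3 and 1207 TPM in TE5 and between 8189 and 17820 TPM in KYSE140. Leukocyte markers summed to at most 1.86 TPM, and fibroblast markers to at most 44.9 TPM, nearly all of it COL1A1.

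For UCA1, NEAT1, MALAT1, GAS5 and MIR31HG, the 2 lines differed more from each other than any knockdown library differed from its scramble. In TPM, a level scaled for transcript length, NEAT1 was the most abundant of all lncRNA genes in the 4 TE5 libraries, whereas GAS5 led the 10 genes in KYSE140. UCA1 was among the 7 most abundant lncRNA genes in TE5 and nearly absent from KYSE140. "Abundant" did not hold for H19 and HOTAIR, which stayed at or below 10.1 TPM in every library, nor for UCA1 in KYSE140.

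**Figure D1:**
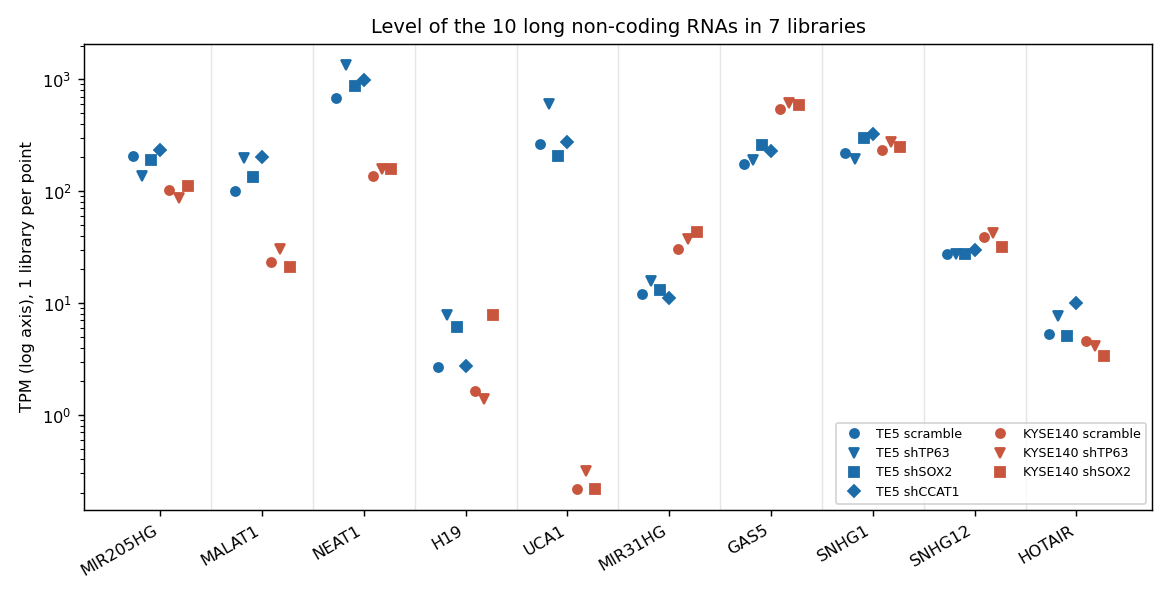
Level of each of the 10 lncRNAs (TPM, log axis) in the 4 TE5 and 3 KYSE140 libraries, 1 point per library. The points of UCA1 lie at 207.8 TPM or above in TE5 and at or below 0.314 TPM in KYSE140, whereas those of SNHG1 and H19 overlap between the lines.

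In TE5 the order of levels was led by NEAT1 (673.5 to 1336 TPM), whose range overlapped no other. UCA1, SNHG1, GAS5, MIR205HG and MALAT1 followed between 99.9 and 594.9 TPM, each range overlapping that of its neighbours in this order. SNHG12 and MIR31HG each stood apart below them, and HOTAIR (5.04 to 10.1 TPM) overlapped H19 (2.70 to 7.79 TPM). In KYSE140, GAS5 (541.8 to 615.3 TPM) was followed by SNHG1, NEAT1 and MIR205HG with ranges that did not overlap. SNHG12 (31.5 to 42.6 TPM) and MIR31HG (30.6 to 43.4 TPM) overlapped, MALAT1 (21.01 to 30.4 TPM) lay just below them, HOTAIR overlapped H19, and UCA1 was last.

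Whether the lines differed was tested with edgeR across scramble, shTP63 and shSOX2 of both lines, 6 libraries in all, at a Benjamini-Hochberg adjusted p of 0.1. Seen over all features, 57.9% were called different between the lines, and 7 of the 10 members were, so the members' share was near that of the transcriptome. At an unadjusted p of 0.05 the shares were 56.2% and 7 of 10. Each line is represented by 1 culture per shRNA, so the p-values measure the spread between these libraries only. No lane of a flow cell held libraries of both lines, so the difference between the lines cannot be told apart from lane. In bulk RNA, fewer cells carrying a transcript and less of it per cell cannot be told apart.

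**Figure D2:**
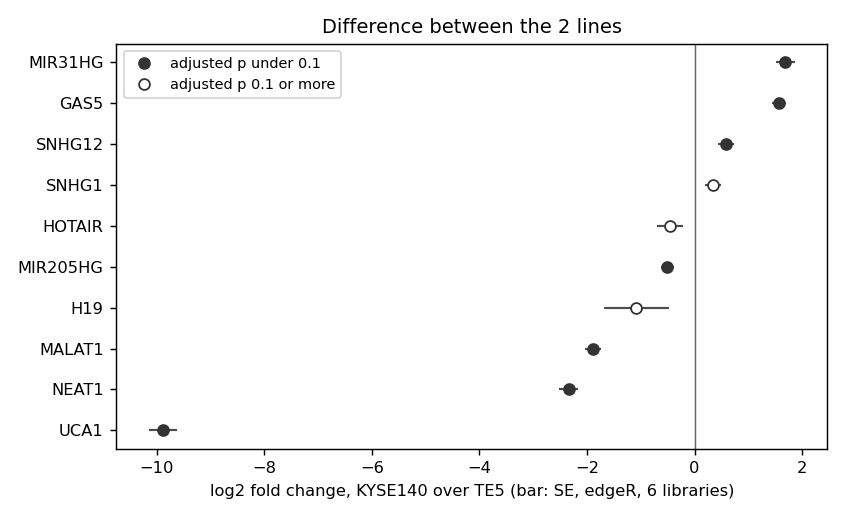
Fitted log2 difference of KYSE140 from TE5 for each lncRNA (x axis, log2; bars are the standard error of the edgeR fit over 6 libraries), with called genes marked. UCA1 stands at -9.89, while H19, SNHG1 and HOTAIR are not called.

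UCA1 showed the widest difference. Its level in TE5 was 263.3 TPM in scramble, 594.9 in shTP63, 207.8 in shSOX2 and 272.8 in shCCAT1. In KYSE140 it was 0.220 TPM in scramble, 0.314 in shTP63 and 0.218 in shSOX2, which rests on 22.2, 46.2 and 27.7 estimated counts. The groups did not overlap, the ratio of median TPM was 1220, and the fitted difference was -9.89 ± 0.26 (log2, SE; adjusted p = 0.000291). Its nearest protein-coding genes, OR10H1 and CYP4F2, had at most 54.9 normalized counts in any library.

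The nuclear lncRNAs were also higher in TE5. NEAT1 was at 673.5, 1336, 870.2 and 986.5 TPM in TE5 scramble, shTP63, shSOX2 and shCCAT1. In KYSE140 scramble, shTP63 and shSOX2 it was at 136.4, 157.4 and 156.9 TPM. MALAT1 was at 99.9, 197.6, 132.8 and 201.9 TPM in TE5, in the same order of libraries, and at 23.1, 30.4 and 21.01 TPM in KYSE140. Neither gene's ranges overlapped between the lines. NEAT1 was lower in KYSE140 by a fitted -2.34 ± 0.18 (log2, SE; adjusted p = 0.00106) and MALAT1 by -1.89 ± 0.15 (adjusted p = 0.00111). FRMD8, the protein-coding gene next to NEAT1, was lower in KYSE140 as well, by -0.93 (adjusted p = 0.00185).

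GAS5 and MIR31HG were the members most clearly higher in KYSE140. GAS5 was at 173.2, 190.2, 259.2 and 228.0 TPM in TE5 scramble, shTP63, shSOX2 and shCCAT1, and at 541.8, 615.3 and 594.5 TPM in KYSE140 scramble, shTP63 and shSOX2. Its fitted difference was 1.57 ± 0.13 (log2, SE; adjusted p = 0.00122). MIR31HG was at 12, 15.7, 13.2 and 11.1 TPM in TE5 and at 30.6, 37.7 and 43.4 TPM in KYSE140, a difference of 1.69 ± 0.18 (adjusted p = 0.0024). All KYSE140 values of both genes lay above all TE5 values.

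MIR31HG lies at 9p21. Of 8 measured genes around it, 8 were called between the lines (57.9% of all features), 3 lower and 5 higher in KYSE140. The lower ones included the cell cycle inhibitors CDKN2A, with 182.3 to 276.7 normalized counts in TE5 and 0.0 in each KYSE140 library, and CDKN2B, with 1473 to 3839 against at most 0.9. MTAP, the next protein-coding gene on that side of MIR31HG at a distance of 242745 bases, was higher in KYSE140 (1.63, adjusted p = 0.00257), as was FOCAD, on the other side (2.87, adjusted p = 0.000291).

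SNHG12 and MIR205HG differed less between the lines. SNHG12 was at 27.4, 27.3, 27.7 and 29.8 TPM in TE5 and at 38.9, 42.6 and 31.5 TPM in KYSE140, with a fitted 0.58 ± 0.15 (log2, SE; adjusted p = 0.0317). MIR205HG was at 207.9, 135.4, 189.5 and 235.5 TPM in TE5 and at 102.5, 87.1 and 111.5 TPM in KYSE140, with -0.51 ± 0.12 (adjusted p = 0.0244). The ranges of both genes were apart, but their calls rested on single libraries. SNHG12 was not called without KYSE140 scramble (adjusted p = 0.125), KYSE140 shTP63 (0.109), TE5 scramble (0.122) or TE5 shTP63 (0.101), and MIR205HG not without KYSE140 scramble (0.145), KYSE140 shSOX2 (0.111) or TE5 scramble (0.148). The other 5 calls (UCA1, NEAT1, MALAT1, MIR31HG and GAS5) were made whichever of the 6 libraries was left out.

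SNHG1, H19 and HOTAIR were not called. SNHG1 had 218.1, 195.5, 297.7 and 325.8 TPM in TE5 and 232.8, 274.5 and 249.1 TPM in KYSE140 (0.35 ± 0.15, adjusted p = 0.114). H19 had 2.70, 7.79, 6.07 and 2.72 TPM in TE5 and 1.65, 1.38 and 7.82 TPM in KYSE140 (-1.08 ± 0.61, adjusted p = 0.206). HOTAIR had 5.31, 7.64, 5.04 and 10.1 TPM in TE5 and 4.57, 4.15 and 3.37 TPM in KYSE140 (-0.45 ± 0.24, adjusted p = 0.183). Without TE5 shSOX2 or KYSE140 shSOX2, H19 was called (adjusted p = 0.0315 and 0.0294), as was SNHG1 (0.0769 and 0.0776).

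Other lncRNAs and host genes were also called between the lines, where 57.9% of all features were. Of 24 measured snoRNA host genes beyond the members, 11 were higher and 5 lower in KYSE140. SNHG14 had at most 41.6 normalized counts in TE5 and at least 2311 in KYSE140, and SNHG18 at least 1029 in TE5 and 0.0 in KYSE140. Of 12 further microRNA host genes, 8 were lower and 2 higher in KYSE140, with MIR155HG (-4.69, adjusted p = 0.00502) and MIR100HG (-4.51, adjusted p = 0.00112) lowest. Of 16 tested well-known lncRNAs outside these classes, 7 were lower and 4 higher. FENDRR, known from lung and heart mesoderm, was lowest at -8.31 (adjusted p = 0.000364), and TINCR, which is induced in keratinocyte differentiation, was highest at 3.22 (adjusted p = 0.00245). Of 26 5′ TOP genes, the ribosomal protein and translation factor genes, 25 were higher in KYSE140 with a median of 1.2, beside 1.57 for GAS5 and 0.35 for SNHG1.

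The effect of each knockdown was read as the log2 ratio of TMM-normalized counts to the scramble library of the line, with 1 added to each. There was 1 library on each side, so no p-value was computed, and the intervals in brackets are 95% intervals that cover counting error only. Of the 50 ratios, 4 passed 1 and 0 passed -1. In TE5 shTP63, H19 and UCA1 passed 1 in a background of 16.1% of genes, and 0 members passed -1 against 4.93%. Among genes with at least 1000 counts in 1 of these 2 libraries, which include UCA1 but not H19, 301 of 10258 passed 1. In TE5 shSOX2, H19 passed 1 (6.64% of genes) and 0 members passed -1 (4.84%). TE5 shCCAT1 had 0 members past 1 (12.5%) and 0 past -1 (5.75%). KYSE140 shTP63 likewise had 0 members past 1 (8.76%) and 0 past -1 (4.31%). In KYSE140 shSOX2, H19 passed 1 (6.85%) and 0 members passed -1 (6.5%). The 3 TE5 comparisons share the same scramble library.

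**Figure D3:**
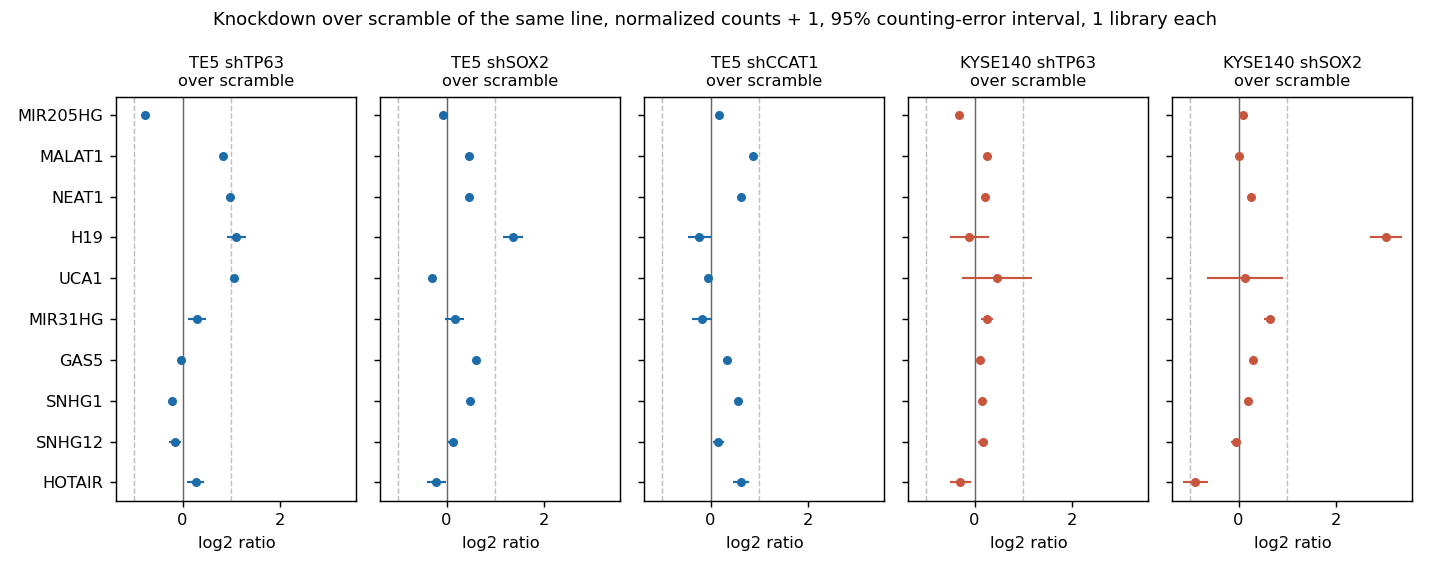
Log2 ratio of normalized counts to the scramble library of the line for each lncRNA (x axis) in the 5 knockdown libraries, 1 panel each, with bars for the 95% counting interval. H19 reaches 3.03 in KYSE140 shSOX2, and MIR205HG lies below 0 in both shTP63 panels.

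MIR205HG had the lowest ratio of the members in TE5 shTP63. Its normalized counts there were 4673 against 7958 in scramble, 58.7% of the control (log2 ratio -0.77 [-0.82, -0.72]). KYSE140 shTP63 had 3729 against 4666, or 79.9% (-0.32 [-0.39, -0.26]). In the other knockdowns the ratio was between -0.08 and 0.17. MIR205HG was therefore below scramble in both lines with TP63 silenced. The edgeR fit over both lines gave -0.56 ± 0.15 (SE; unadjusted p = 0.0137, adjusted p = 0.356), which did not pass the threshold, whereas DESeq2 on the same counts gave an adjusted p of 0.0209.

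UCA1 was 2.09 times scramble in TE5 upon TP63 silencing, with 56531 normalized counts against 27071 in scramble (1.06 [1.04, 1.08]). It was lower in TE5 shSOX2, at 22071 (-0.29 [-0.32, -0.27]), and at 26133 in TE5 shCCAT1 (-0.05 [-0.07, -0.03], but above 0 in TPM or without TMM scaling). In KYSE140 it had 29.5, 41.1 and 32.2 normalized counts in scramble, shTP63 and shSOX2. At this depth neither difference was detectable, with intervals of -0.25 to 1.18 and -0.66 to 0.92. The TP63 fit over both lines gave 0.87 ± 0.25 (SE; unadjusted p = 0.0181, adjusted p = 0.372; DESeq2 adjusted p = 0.0691).

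NEAT1 and MALAT1 were above scramble in each TE5 knockdown. NEAT1 had 106000.0 normalized counts in scramble, 209096 in shTP63 (0.98 [0.97, 0.99]), 146957 in shSOX2 (0.47 [0.46, 0.48]) and 163900.1 in shCCAT1 (0.63 [0.62, 0.64]). MALAT1 had 25639 in scramble, 45956 in shTP63 (0.84 [0.82, 0.86]), 35475 in shSOX2 (0.47 [0.44, 0.49]) and 46707 in shCCAT1 (0.87 [0.84, 0.89]). These 3 libraries share a lane of another flow cell than their scramble. In KYSE140 NEAT1 had 25202 in scramble, 29429 in shTP63 (0.22 [0.20, 0.25]) and 30193 in shSOX2 (0.26 [0.23, 0.29]). MALAT1 had 8465, 10115 (0.26 [0.21, 0.30]) and 8469 (0.00 [-0.05, 0.05]).

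Other nuclear or tailless RNAs were measured beside the pair. Transcripts annotated with a retained intron took 3.13% of counts in TE5 scramble and 3.70% to 3.88% in the TE5 knockdowns, and 4.25% in KYSE140 scramble and 4.58% to 4.88% in its knockdowns. RNAs that lack a poly(A) tail, such as replication-dependent histone mRNAs and RN7SK, summed to 269.7 TPM in TE5 scramble and to 362.9, 447.2 and 265.8 TPM in shTP63, shSOX2 and shCCAT1. In KYSE140 the sum was 143.8, 241.7 and 426.9 TPM in scramble, shTP63 and shSOX2, over 10 of 20 listed genes. Their median log2 ratio was 1.12, 1.27, 0.17, 0.53 and 0.88 in TE5 shTP63, shSOX2, shCCAT1, KYSE140 shTP63 and shSOX2. The part of these differences in the NEAT1 and MALAT1 values was not tested. The 11 paraspeckle proteins had medians of -0.44, -0.25, -0.17, -0.03 and -0.12 in the same order, with 0 past 1 in either direction. Over both lines the TP63 fit gave 0.59 ± 0.21 for NEAT1 (unadjusted p = 0.0405, adjusted p = 0.432; DESeq2 0.0955) and 0.52 ± 0.18 for MALAT1 (unadjusted p = 0.0336, adjusted p = 0.418; DESeq2 0.0889).

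H19, the imprinted host of miR-675, gave the strongest ratio of the members. In KYSE140 it had 110.3 normalized counts in scramble, 102.2 in shTP63 and 910.4 in shSOX2. The shSOX2 library was thus 8.19 times scramble (3.03 [2.71, 3.36]), in a library where SOX2 remained at 75.6%, and shTP63 lay within the counting error (-0.11 [-0.51, 0.30]). In TE5 it had 270.0 in scramble, 584.0 in shTP63 (1.11 [0.91, 1.31]), 696.7 in shSOX2 (1.36 [1.16, 1.57]) and 229.9 in shCCAT1 (-0.23 [-0.47, 0.01]). H19 was above scramble in both lines with SOX2 silenced. The SOX2 fit gave 2.37 ± 0.74 (SE; unadjusted p = 0.0252, adjusted p = 0.617; DESeq2 adjusted p = 0.0378), and its value without 1 library ranged from 1.04 (without KYSE140 shSOX2) to 3.31 (without TE5 shSOX2).

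Of the 5 other measured genes of the imprinted domain, 4 had a ratio between -0.58 and 0.38 in KYSE140 shSOX2. IGF2, which is expressed from the opposite parental allele, had 5011 normalized counts in scramble and 5235 in shSOX2 (0.06). In TE5 IGF2 had 293.3 in scramble, 618.5 in shTP63, 178.2 in shSOX2 and 123.1 in shCCAT1. Its own level was higher in KYSE140 (3.95, adjusted p = 0.00292), where H19 was not called different. MRPL23, on the other side of H19, was at -1.19 in TE5 shTP63. The fifth, LSP1, passed 1 in KYSE140 shSOX2, with 13.8 normalized counts in scramble and 105.6 in shSOX2 (2.85). The medians of the 5 genes were -0.73, -0.53, -0.40, -0.33 and 0.31 in TE5 shTP63, shSOX2, shCCAT1, KYSE140 shTP63 and shSOX2. Of the 5, 2 were called between the lines (57.9% of all features). They were IGF2 and CDKN1C (4.4, adjusted p = 0.000925), both higher in KYSE140.

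MIR31HG moved little in TE5 and most in KYSE140 shSOX2. Its normalized counts were 393.8, 485.7, 442.2 and 348.3 in TE5 scramble, shTP63, shSOX2 and shCCAT1, with a ratio between -0.18 and 0.30. In KYSE140 they were 1104 in scramble, 1321 in shTP63 (0.26 [0.14, 0.38]) and 1720.1 in shSOX2 (0.64 [0.52, 0.76]). The 9p21 genes around it had a median of 0.30 in KYSE140 shTP63 and -0.08 in KYSE140 shSOX2. In TE5 their median was 0.31, 0.02 and 0.02 in shTP63, shSOX2 and shCCAT1.

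The snoRNA hosts differed from each other. GAS5 had 5561 normalized counts in TE5 scramble, 5411 in shTP63 (-0.04 [-0.09, 0.01], but above 0 in TPM or without TMM scaling), 8500.3 in shSOX2 (0.61 [0.56, 0.66]) and 7006 in shCCAT1 (0.33 [0.28, 0.38]). SNHG1 had 10374, 8922 (-0.22 [-0.26, -0.18]), 14427 (0.48 [0.44, 0.51]) and 15289 (0.56 [0.52, 0.59]) in the same libraries. Both were thus higher in TE5 shSOX2 and shCCAT1 but not in shTP63. In KYSE140 shTP63 and shSOX2 their ratios lay between 0.12 and 0.29. SNHG12 stayed between -0.16 and 0.17 in all 5 knockdowns. In the fit, GAS5 in SOX2 silencing gave 0.44 ± 0.16 (unadjusted p = 0.0392, adjusted p = 0.644), and SNHG1 and SNHG12 did not pass an unadjusted p of 0.05 in the TP63 or SOX2 fits.

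The remaining host genes and the 5′ TOP genes give the setting of these values. The 24 other snoRNA hosts measured in TE5 had medians of -0.40, -0.01 and 0.26 in shTP63, shSOX2 and shCCAT1, and the 23 measured in KYSE140 had -0.01 and 0.19. DANCR (-1.30) and SNHG4 (-1.24) passed -1 in TE5 shTP63, and 0 others of those measured passed 1 in either direction in the 5 knockdowns. The 26 5′ TOP genes had medians of -0.39, 0.07 and -0.16 in the TE5 knockdowns and 0.06 and 0.33 in those of KYSE140, and 0 of 26 were above 0 in TE5 shTP63 against 25 of 26 in KYSE140 shSOX2. RPL5, a ribosomal protein gene, passed -1 with SOX2 silenced in both lines. TE5 shSOX2 had 18105.6 normalized counts of it against 38507 in scramble (-1.09), and KYSE140 shSOX2 had 24972 against 97179 (-1.96). Factors of nonsense-mediated decay, which degrades the spliced RNAs of these hosts, had medians between -0.17 and 0.18 over 7 genes, with 0 past 1 in either direction. Between the lines, where 57.9% of all features were called, 4 of the 7 were called higher and 1 lower in KYSE140.

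HOTAIR was above scramble in TE5 and below it in KYSE140 upon TP63 silencing, a difference that was not tested. In TE5 it had 453.4 normalized counts in scramble, 547.3 in shTP63 (0.27 [0.10, 0.44]), 393.2 in shSOX2 (-0.21 [-0.40, -0.01]) and 700.3 in shCCAT1 (0.63 [0.46, 0.79]). In KYSE140 it had 425.1 in scramble, 346.4 in shTP63 (-0.29 [-0.51, -0.08]) and 229.3 in shSOX2, 54.1% of scramble (-0.89 [-1.14, -0.63]). It was thus below scramble in both lines with SOX2 silenced, where the fit gave -0.57 ± 0.30 (SE; unadjusted p = 0.112, adjusted p = 0.737). HOXC11 overlaps HOTAIR on the opposite strand and was at 0.93 in TE5 shCCAT1, and 0.11 in KYSE140 shSOX2. The files do not say whether counting used the strand, so reads of HOTAIR and HOXC11 may not be told apart where they overlap. The 9 HOXC genes had medians of 0.30, -0.16, 0.35, 0.13 and -0.08 in TE5 shTP63, shSOX2, shCCAT1, KYSE140 shTP63 and shSOX2. Between the lines, where 57.9% of all features were called, 6 of the 9 were called, all higher in KYSE140.

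Over both lines, edgeR called 0 of the 10 members upon TP63 silencing, in a background of 0% of features. Upon SOX2 silencing it called 0 members against 0.00331%, which is 1 feature, the unassigned transcript ENST00000539476, named here after its values were seen. At an unadjusted p of 0.05, 4 members passed upon TP63 silencing (MIR205HG, MALAT1, NEAT1 and UCA1; 11.1% of features) and 2 upon SOX2 silencing (H19 and GAS5; 7.45%). DESeq2 called 4 members upon TP63 silencing (14%) and 1 upon SOX2 silencing (4.85%), out of fewer features after its own filter. The other lncRNA classes and gene lists likewise had 0 genes called by edgeR in these fits. In the single pairs, the median ratio of the members was 0.29, 0.32, 0.25, 0.16 and 0.16 in TE5 shTP63, shSOX2, shCCAT1, KYSE140 shTP63 and shSOX2. For all genes it was 0.13, 0.01, 0.07, 0.04 and 0.03, and for all lncRNA genes 0.38, 0.04, 0.38, 0.16 and 0.00.

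Silencing of TP63 and of SOX2 can be compared within a lane. In TE5, UCA1 was 2.56 times as high in shTP63 as in shSOX2 (1.36 [1.33, 1.38]), the only member past 1 (15.2% of genes), and 0 members passed -1 (5.75%). Among genes with at least 1000 counts in 1 of these 2 libraries, 373 of 10255 passed 1. SNHG1 (-0.69 [-0.73, -0.66]), MIR205HG (-0.69 [-0.74, -0.64]) and GAS5 (-0.65 [-0.70, -0.60]) were lower in TE5 shTP63. In KYSE140, H19 in shTP63 was at 11.3% of shSOX2 (-3.14 [-3.42, -2.86]), the only member past -1 (6.47%), and 0 members passed 1 (10.8%). MIR205HG was lower in KYSE140 shTP63 too (-0.42 [-0.48, -0.35]), and HOTAIR higher (0.59 [0.35, 0.84]), as in TE5 (0.48 [0.29, 0.66]). UCA1 in KYSE140 could not be told from 0 (0.34 [-0.33, 1.01]).

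**Figure D4:**
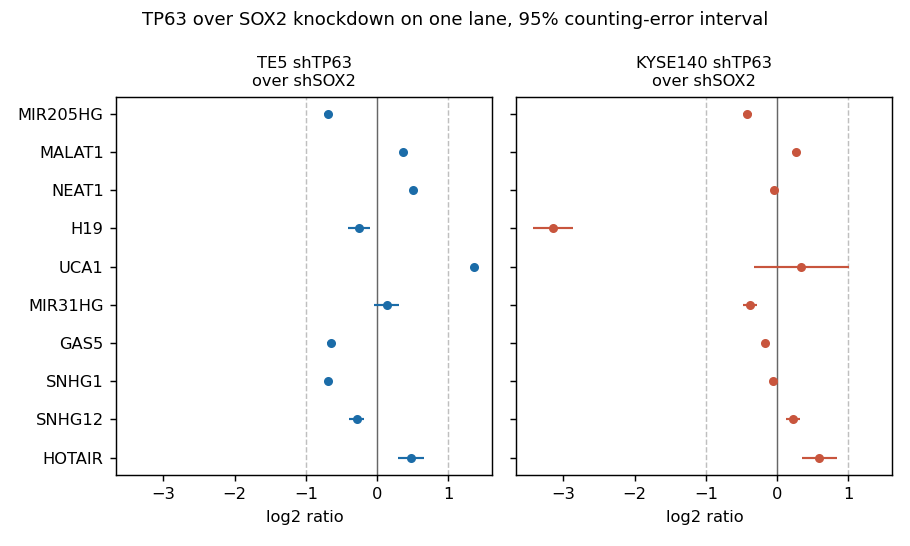
Log2 ratio of shTP63 to shSOX2 libraries of the same line and lane for each lncRNA (x axis, with 95% counting intervals), 1 panel per line. UCA1 is at 1.36 in TE5 and H19 at -3.14 in KYSE140, while MIR205HG lies below 0 in both.

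The edgeR test of this difference over both lines called 0 members against 0.00331% of features. UCA1 gave 1.06 ± 0.25 (SE; unadjusted p = 0.00898, adjusted p = 0.232), MIR205HG -0.55 ± 0.15 (0.015 and 0.264) and GAS5 -0.41 ± 0.16 (0.0474 and 0.365). These 3 passed the unadjusted threshold of 0.05, as did 13.4% of all features. H19 gave -1.73 ± 0.75 (0.0719 and 0.413). DESeq2 called 4 members (16.3%), with adjusted p-values of 0.017 for UCA1, 0.0208 for MIR205HG, 0.097 for GAS5 and 0.0976 for H19. Of the 26 5′ TOP genes, 11 were lower and 1 higher in shTP63 than in shSOX2 at an unadjusted p of 0.05, with 0 called after adjustment.

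The third knockdown on the TE5 lane gives further pairs. H19 in shCCAT1 was at 33.1% of shSOX2 (-1.60 [-1.80, -1.39]), the only member past -1 (7.75% of genes), and 0 members passed 1 (12.7%). HOTAIR was higher in shCCAT1 than in shSOX2 (0.83 [0.66, 1.01]). Between shTP63 and shCCAT1, 2 members passed 1 (14.8% of genes) and 0 passed -1 (9.7%). Among genes with at least 1000 counts in 1 of these 2 libraries, 350 of 10493 passed 1. H19 in shTP63 was 2.53 times shCCAT1 (1.34 [1.14, 1.54]) and UCA1 2.16 times (1.11 [1.09, 1.13]), while MIR205HG was at 52.3% of it (-0.93 [-0.98, -0.89]). MALAT1 was nearly level between shTP63 and shCCAT1 (-0.02 [-0.04, -0.01]), whereas NEAT1 was higher in shTP63 (0.35 [0.34, 0.36]).

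The single transcripts show which forms carried the counts. NEAT1-202, the long isoform of 22743 bases that builds paraspeckles, took between 50.5% and 56.0% of NEAT1 counts in the 7 libraries, NEAT1-201 between 27.4% and 30.7%, and NEAT1-203 between 14.8% and 20.3%. Because NEAT1-202 contains the sequence of the short isoform, the split rests on the authors' model, and scaled for length its median share was 6.81% in TPM. The estimated split of MALAT1 counts lay apart between the lines, as its level did. MALAT1-202 took 26.2% to 27.3% of counts in TE5 and 61.8% to 63.5% in KYSE140. MALAT1-203 took 68.9% to 70.4% in TE5 and 34.9% to 35.5% in KYSE140. It lies within the span of MALAT1-202, so this split too rests on the authors' model.

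**Figure D5:**
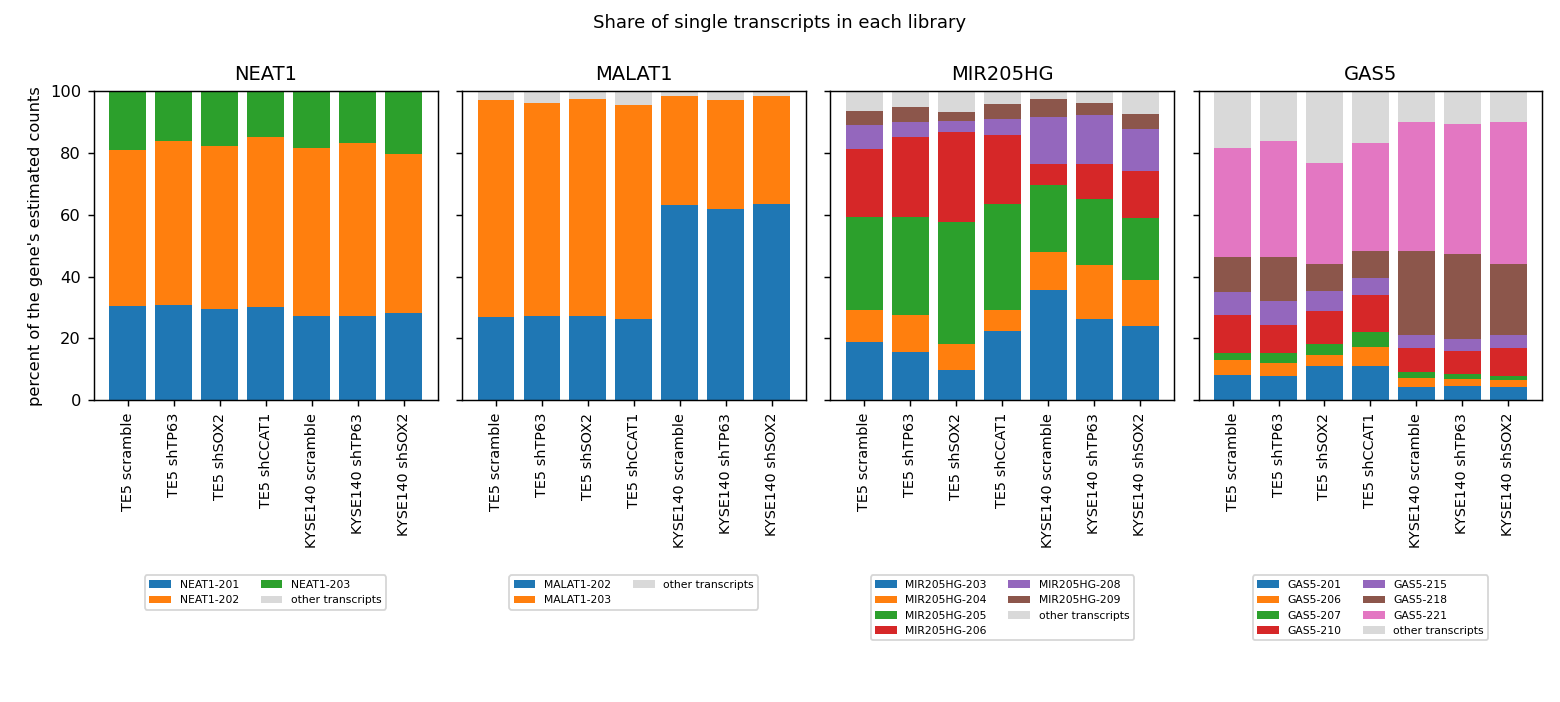
Share of each transcript in the gene's estimated counts (y axis, percent) for NEAT1, MALAT1, MIR205HG and GAS5 in the 7 libraries (x axis, 1 bar each), with transcripts that never reach 5% shown as other. MALAT1-202 holds 26.2% to 27.3% in the TE5 bars and 61.8% to 63.5% in the KYSE140 bars.

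The shares of several MIR205HG transcripts also lay apart between the lines, though not that of MIR205HG-209. MIR205HG-206 took 21.8% to 28.9% in TE5 and 6.95% to 15.3% in KYSE140, and MIR205HG-205, annotated as a retained intron, 30.3% to 39.5% and 20% to 21.6%. In TPM, MIR205HG-206 took 39.8% to 53.9% in TE5 and 13.7% to 27.0% in KYSE140. The longer MIR205HG-205 took 6.36% to 8.45% and 4.04% to 4.91%. These transcripts overlap, so their split rests on the authors' model. In TE5, MIR205HG-203 had 1507 normalized counts in scramble, 725.4 in shTP63 (-1.05) and 745.4 in shSOX2 (-1.01), although the gene sum was at -0.08 in the latter. MIR205HG-208 had 628.4, 227.4 (-1.46) and 269.3 (-1.22). In KYSE140, MIR205HG-206 had 324.1 in scramble and 761.1 in shSOX2 (1.23 [1.02, 1.44]).

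H19-203 held most of the difference in H19. It had 44.9 normalized counts in KYSE140 scramble and 735.8 in shSOX2 (4.0 [3.51, 4.50]). In TE5 it went from 88.6 in scramble to 277.2 in shTP63 (1.63 [1.29, 1.98]) and 488.9 in shSOX2 (2.45 [2.12, 2.78]). H19-202 was at 165.2 in TE5 scramble and at 0.0 in TE5 shCCAT1, at 0.0 in KYSE140 scramble and at 96.2 in KYSE140 shSOX2. Transcripts of H19 overlap over much of their length, so the split of such low counts is uncertain. In TPM the H19 gene went from 1.65 to 7.82 in KYSE140 shSOX2, a smaller ratio than that of the counts.

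Intron-retaining transcripts held much of the counts of the snoRNA hosts, a measure that favours long transcripts. These took 42.5% to 52.1% of GAS5 counts in TE5 and 26.2% to 28.2% in KYSE140, ranges that did not overlap. For SNHG1 the share was 34.6% to 39.7% in TE5 and 32.7% to 35.4% in KYSE140, and for SNHG12 66.1% to 76.9% and 65.6% to 73.1%. In TE5 scramble, GAS5-210 took 12.2% of counts but 4.47% of TPM, and SNHG1-209 16.8% but 5.38%. The shorter SNHG1-201, also intron-retaining, took 4.47% of counts and 5.49% of TPM. Transcripts of a host overlap, so their split rests on the authors' model. GAS5-221 was the largest GAS5 transcript in every library, with 32.6% to 45.8% of counts. In TE5 shCCAT1, SNHG1-205 had 1628 normalized counts against 473.1 in scramble (1.78 [1.63, 1.93]) and SNHG1-209 had 3293 against 1746 (0.91 [0.83, 1.00]).

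UCA1, MIR31HG and HOTAIR had a dominant form. UCA1-201 took 96.9% to 100% of UCA1 counts, and MIR31HG had a single listed transcript. HOTAIR-201 took 64.6% to 86.7%, and had 368.4 normalized counts in KYSE140 scramble and 148.1 in shSOX2 (-1.31 [-1.61, -1.01]).

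Reported targets of miR-205 were examined beside its host, although the microRNA itself was not measured. The medians of the 7 listed genes were 0.50, 0.09, 0.05, 0.11 and -0.20 in TE5 shTP63, shSOX2, shCCAT1, KYSE140 shTP63 and shSOX2, over 6 or 7 measured genes. In the TP63 fit 6 of 7 were above 0, and 0 were called. ERBB3, a receptor of the EGFR family, gave 0.56 (unadjusted p = 0.0056, adjusted p = 0.309), and INPPL1, a lipid phosphatase, gave 0.45 (0.0235 and 0.392). ZEB1, a repressor of epithelial genes, was at 0.81 in TE5 shTP63, on 73.3 normalized counts. The share of such genes in the transcriptome at an unadjusted p of 0.05 is the 11.1% given above.

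For MIR205HG, UCA1 and H19, the genes whose 5 knockdown ratios lay closest were found among 12148 genes with at least 100 counts in each library. The measure was the Euclidean distance of the log2 ratios, in which the 3 TE5 values share a scramble library. MIR205HG was closest to BCS1L (0.10), TAOK1 (0.13) and the lncRNA HAGLR (0.14). UCA1 was closest to FNIP2 (0.30), TTC9 (0.32) and PIK3R3 (0.33), whose ratios in TE5 shTP63 were 0.95, 1.14 and 0.86 beside 1.06 for UCA1. The 2 KYSE140 ratios of UCA1 rest on 22.2 to 46.2 estimated counts, with counting intervals wider than these distances, so its order of neighbours is uncertain. H19 had no close neighbour: LYPD3 was at a distance of 1.18, with ratios of 1.08, 1.00, -0.27, 0.29 and 1.99, followed by ENSG00000291277 (1.69) and MAL2 (1.75).

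The positions and neighbours of the members, in GRCh37, complete their description. MIR205HG (ENSG00000230937) lies at chr1:209602162-209606193 on the + strand, between PLXNA2 and CAMK1G. NEAT1 (ENSG00000245532, chr11:65190245-65213011) and MALAT1 (ENSG00000251562, chr11:65265111-65275544) lie on the + strand, next to FRMD8. H19 (ENSG00000130600) lies at chr11:2016396-2025782 on the − strand, and UCA1 (ENSG00000214049) at chr19:15939016-15947138 on the + strand. MIR31HG (ENSG00000171889) spans chr9:21380072-21559890 on the − strand, between IFNA13 and MTAP. GAS5 (ENSG00000234741) lies at chr1:173827697-173838020 on the − strand between CENPL and SERPINC1, and overlaps ZBTB37 on the other strand. SNHG12 (ENSG00000197989) lies at chr1:28905050-28909644 on the − strand between RCC1 and TAF12, and overlaps TRNAU1AP on the other strand. HOTAIR (ENSG00000228630) lies at chr12:54356092-54368740 on the − strand between HOXC12 and HOXC10.

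SNHG1 (ENSG00000255717) lies at chr11:62619450-62623425 on the − strand, 51 bases from SLC3A2, an amino acid transporter subunit transcribed the other way, with WDR74 on its other side. SLC3A2 had 51979 normalized counts in the TE5 control and 39418 in the KYSE140 control, and was lower in KYSE140 (-0.34, adjusted p = 0.0523), where SNHG1 was at 0.35. In TE5 shSOX2 the pair was at 0.27 and 0.48, in shCCAT1 at -0.03 and 0.56, and in shTP63 at -0.06 and -0.22. In KYSE140 it was at -0.20 and 0.16 in shTP63 and at 0.42 and 0.20 in shSOX2. PLXNA2, the neighbour of MIR205HG at a distance of 1184433 bases, was at 1.65 in KYSE140 shSOX2, where MIR205HG was at 0.09.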

How the data were processed

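Per the submitters' labels and the study's methods, the authors ran Kallisto on 100 bp paired-end reads against Ensembl transcripts of hg19 (release 82). They deposited an estimated count and a TPM value for each of 196354 transcripts in 7 libraries. The Kallisto version is not given in the sources used here. The estimated counts deposited are not scaled between libraries. TPM values were scaled by the authors for effective length and library size.

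Transcripts were summed to genes with GENCODE 44 mapped to GRCh37, which covered 182863 transcripts and 93.45% to 93.69% of counts. The other 13491 were kept as single features. Transcript models can differ between the annotation releases. Sums were rounded and tested with edgeR 4.0.16 (R 4.3.3) by the quasi-likelihood test. The fit held 6 libraries (scramble, shTP63 and shSOX2 of both lines), shRNA and cell line as terms, TMM scaling, filterByExpr, a Benjamini-Hochberg adjusted p under 0.1 and 2 residual degrees of freedom. The lines thus serve as replicates of an shRNA. On simulated counts over 29362 features for the TP63 comparison, 70% of genes changed by 1 and 99% of genes changed by 2 (log2) were called, 5.1% of calls were false, and an unchanged contrast gave 0 calls. The simulated counts had less spread than the deposited counts, whose common dispersion was 0.141, and no difference between the lines. These shares therefore do not give the power of the fit on the deposited counts. That fit did not call TP63 itself (-1.95, adjusted p = 0.287). For pairs of libraries, the background counts genes past -1 or 1 among those with at least 10 counts in 1 of the 2. Python 3.11.15, numpy 2.4.6 and pandas 2.3.3 were used, and DESeq2 1.42.0 as an alternative.

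The members, the 14 gene lists and the tests were chosen with earlier results of these data known. Named are all members, their transcripts with at least 5% of the member's counts in a library, their nearest protein-coding genes, the 3 genes of most like pattern for MIR205HG, UCA1 and H19, and list genes of highest or lowest fold change where a result turns on them. Other list genes (the TP63, SOX2, KRT and COL1A1 markers, ERBB3, INPPL1, ZEB1, CDKN2A, CDKN2B, IGF2, CDKN1C, HOXC11, LSP1, RPL5 and SNHG4 among them) were picked after their values were seen. Results for some genes are not reported here.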

Additional observations from a re-analysis of the deposited data

Results flagged for a closer look

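Of the 10 lncRNAs, 4 had log2 ratios to scramble of opposite sign in the lines upon the same silencing, with both 95% counting intervals clear of 0, on 1 library per condition and line, and the difference between the lines was not tested. With TP63 silenced, HOTAIR was at 0.27 in TE5 and at -0.29 in KYSE140. With TP63 silenced as well, SNHG1 was at -0.22 and 0.16 and SNHG12 at -0.16 and 0.17 in TE5 and KYSE140. In TPM, SNHG12 was nearly level in TE5, with 27.4 in scramble and 27.3 in shTP63. With SOX2 silenced, MIR205HG was at -0.08 in TE5 and at 0.09 in KYSE140. Each scramble library was on another lane or flow cell than the knockdowns of its line.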

How the results depend on the processing

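The limits are these: 1 library per condition and line, scramble libraries on other lanes than the knockdowns, 2 residual degrees of freedom in the fit, and lines used as replicates. The lines also shared no lane of a flow cell. The fit was run under 14 other settings, 6 of which left out a library.

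The number of features called by edgeR upon TP63 silencing was 0. It was 2336 with DESeq2 and 220 with genes only, a setting chosen after seeing the data, in which unassigned transcripts were left out and the common dispersion was 0.0457 in place of 0.141. Upon SOX2 silencing 1 feature was called, against 982 with DESeq2, 34 with genes only and 0 without the cell line as block. Between TP63 and SOX2 silencing 1 feature was called, against 3098 with DESeq2, 988 with genes only, 126 with a filter of at least 1 count and 0 without the block. Members called were 4 with DESeq2 upon TP63 silencing, 1 upon SOX2 silencing and 4 between them, and 1 between them with genes only (UCA1, adjusted p = 0.0818). Leaving out each library gave 0 to 0 features and members in these 3 comparisons, and 13040 to 15099 features and 5 to 9 members between the lines. SNHG12 was not called between the lines without scaling beyond library size (adjusted p = 0.103). No paired analysis beyond this block was possible because there was 1 library per condition and line.

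Genes past 1 in either direction over the 5 pairs numbered 17768, and 9318 with a pseudocount of 10, 3783 with TPM and 4009 with at least 100 counts. The member ratios past 1 numbered 4 of 50 under the first 2 of these and 4 of 48 with at least 100 counts. Without scaling they numbered 5 of 50, with NEAT1 in TE5 shTP63 added. The 4 in TPM, with 1 added to each level, were not all the same ratios. H19 in TE5 shSOX2 (6.07 TPM against 2.70 in scramble) fell below a log2 ratio of 1. MALAT1 in TE5 shCCAT1 (201.9 TPM against 99.9) passed it. GAS5 in TE5 shTP63 and UCA1 in TE5 shCCAT1 changed sign without scaling and in TPM, and H19 in TE5 shCCAT1 in TPM. Scaling by library size alone moved the median of all genes in TE5 shCCAT1 from 0.07 to 0.19. The median share of NEAT1-202 was 53.1% of counts and 6.81% of TPM.

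The fitted values that changed sign upon TP63 silencing were SNHG1 0.05, SNHG12 0.08 and HOTAIR 0.04 without scaling, SNHG12 0.03 without the block and HOTAIR 0.11 with length-scaled TPM. Upon SOX2 silencing they were MIR205HG 0.04 with length-scaled TPM and 0.01 with all 7 libraries, and SNHG12 -0.09 with length-scaled TPM. Between the silencings SNHG12 was at 0.07 without scaling and with length-scaled TPM, and 0.02 without the block. With a library left out, values upon TP63 silencing ranged from -0.63 to 1.42 for H19, -0.18 to 0.18 for GAS5, -0.34 to 0.20 for SNHG1, -0.26 to 0.19 for SNHG12 and -0.35 to 0.26 for HOTAIR. Upon SOX2 silencing they ranged from -0.18 to 0.15 for MIR205HG, -0.04 to 0.46 for MALAT1, -0.37 to 0.39 for UCA1 and -0.16 to 0.21 for SNHG12. Between the silencings they ranged from -0.09 to 0.50 for NEAT1, -0.38 to 0.09 for MIR31HG and -0.30 to 0.18 for SNHG12. The cause was not tested.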
